A study of Mus musculus with 12 samples.

Results

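The 40 genes followed here are markers of T cells and natural killer (NK) cells, read in 12 mRNA libraries from mouse kidney cortex. They were taken by symbol from a list of such genes, and each was among the 24452 gene symbols of the count table. By role they formed 6 subsets: 8 genes of the T cell receptor complex and its first signalling steps, 5 pan-lymphocyte surface proteins, 6 helper and costimulation genes, 12 cytotoxic and NK genes, 4 regulatory and exhaustion genes, and 5 genes of effector cytokines, chemokines and their receptors. The mice were C57BL/6, labelled adult and male, in a design that crossed glomerulonephritis (GN, inflammation of the filtering units of the kidney) with captopril, an inhibitor of angiotensin-converting enzyme. Each of the 4 groups had 3 libraries: controls on water (Control_water), controls on captopril (Control_captopril), mice with GN on water (GN_water) and mice with GN on captopril (GN_captopril). GN followed injections into the peritoneum of 10 mg of horse spleen apoferritin, a foreign protein, 5 times a week, with 100 micrograms of lipopolysaccharide from Salmonella as adjuvant 3 times a week, over 6 weeks. Controls were injected with saline on the schedule of the GN mice, and cortex was taken at week 9. The dose and timing of captopril were not given in the sources used here. Each library title holds a pair of numbers, and no label tells if it stands for 1 mouse or a pool, so the p-values measure only the spread between libraries.

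A T cell recognises a peptide on another cell through its antigen receptor, whose CD3 and zeta chains pass the signal to the kinases Lck and Zap70 and to the adaptor Lat. Helper T cells carry CD4, cytotoxic T cells carry CD8, and NK cells kill without an antigen receptor but with the same granule proteins, granzymes and perforin. Regulatory T cells depend on the transcription factor Foxp3, and inhibitory receptors such as PD-1, CTLA-4 and TIGIT restrain T cells that are stimulated for long. In chronic glomerulonephritis, T cells are known to gather in the interstitium around tubules, vessels and glomeruli.

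Library totals ran from 14.2 to 22.8 M counts (M, mega). Although every library was labelled male, Xist, the RNA of the inactive X chromosome, was at 181 to 375 CPM (a gene's counts scaled to the depth of its library) in the Control_captopril and GN_water libraries and at most 0.182 CPM in the others. The summed level of the Y-linked genes Ddx3y, Kdm5d, Uty and Eif2s3y was 121 to 144 CPM in Control_water and GN_captopril and at most 0.101 CPM in the others. Ren1, the renin gene, which captopril is known to raise, was at 1083 to 1794, 63.4 to 82.8, 20.8 to 30.2 and 438 to 691 CPM in Control_water, Control_captopril, GN_water and GN_captopril. The group names below are therefore those of the labels. By these transcripts the male label does not hold for the Control_captopril and GN_water libraries, whichever group each belongs to. Whether libraries of some groups also had their labels exchanged cannot be told with these files. Comparisons between 2 groups that differ in these transcripts therefore cannot tell the labelled drink or disease from the kind of mouse, and what they say of captopril is uncertain. The mean GN change over both drinks sets 6 GN libraries against 6 control libraries with the same balance of Xist and Y-linked transcripts, would be the same if drinks were exchanged within a disease state, and leads below. Ren1 was not balanced in it, with a GN change of -1.45 ± 0.15 (SE), edgeR adjusted p = 1.45e-05, on the log2 scale. Adrenal cortex markers were highest in Control_captopril replicate 3, with 7011 counts in all, followed by GN_captopril replicate 3, with 1658 counts, while each of the other libraries held 17 to 351. Markers of kidney cortex (such as Slc34a1 and Umod) summed to 12808 to 14829 CPM in controls and 10945 to 12447 CPM in GN. All GN libraries thus lay below all controls, and the part of this in the results below was not tested.

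T and NK cell genes were mostly higher in GN: 37 of the 40 rose in the GN average, 1 fell, and 2 (Ncr1 and Ifng) had too few counts to be tested. Among all 14618 genes tested, 16.3% were higher and 14.6% lower at the same threshold (edgeR quasi-likelihood test, Benjamini-Hochberg adjusted p under 0.05 over all genes). The median log2 fold change, fitted without a filter on counts, was 1.67 over the 40 genes and -0.01 over all genes. In 31 of the 40, each of the 6 GN libraries lay above each of the 6 control libraries, which held for 5.38% of all genes tested. The gene that fell was Gata3. In bulk tissue, more cells of a type and more RNA per cell cannot be told apart. Control libraries held few counts of many of these genes: 24 of the 40 passed the count filter in the control libraries alone, and of these 23 rose and 1 fell. The other 14 tested genes passed only with the GN libraries, so a difference was built into their selection.

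By subset, the count of genes that rose was 8 of 8 for the receptor complex, 5 of 5 for the pan-lymphocyte proteins, 5 of 6 for helper and costimulation genes, 11 of 12 for cytotoxic and NK genes, 4 of 4 for regulatory and exhaustion genes and 4 of 5 for effector genes. The median log2 fold changes, in the same order and without the filter, were 1.51, 1.81, 1.63, 1.33, 3.50 and 1.90. The regulatory and exhaustion subset thus had the highest median, but all 4 of its genes passed the count filter only with the GN libraries, so its count and median are no support for a rise larger than that of other subsets. Of the other subsets, Cd5, Cd27, Cd28, Icos, Gzma, Gzmb, Prf1, Klrd1, Eomes and Tbx21 also passed only with the GN libraries. A difference was thus built into part of the pan-lymphocyte, helper and cytotoxic counts as well. The calls of Klrd1, Icos and Skap1 depended on the setting: Klrd1 missed the threshold with DESeq2 and without Control_water replicate 1, Control_captopril replicate 1 or 3, GN_water replicate 1 or 2, or GN_captopril replicate 3. Icos missed it without Control_captopril replicate 1 or without GN_captopril replicate 2 or 3, both genes missed it without the 2 libraries with most adrenal counts, and Skap1 missed it on RPKM values with a pseudocount of 0.1.

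**Figure D1:**
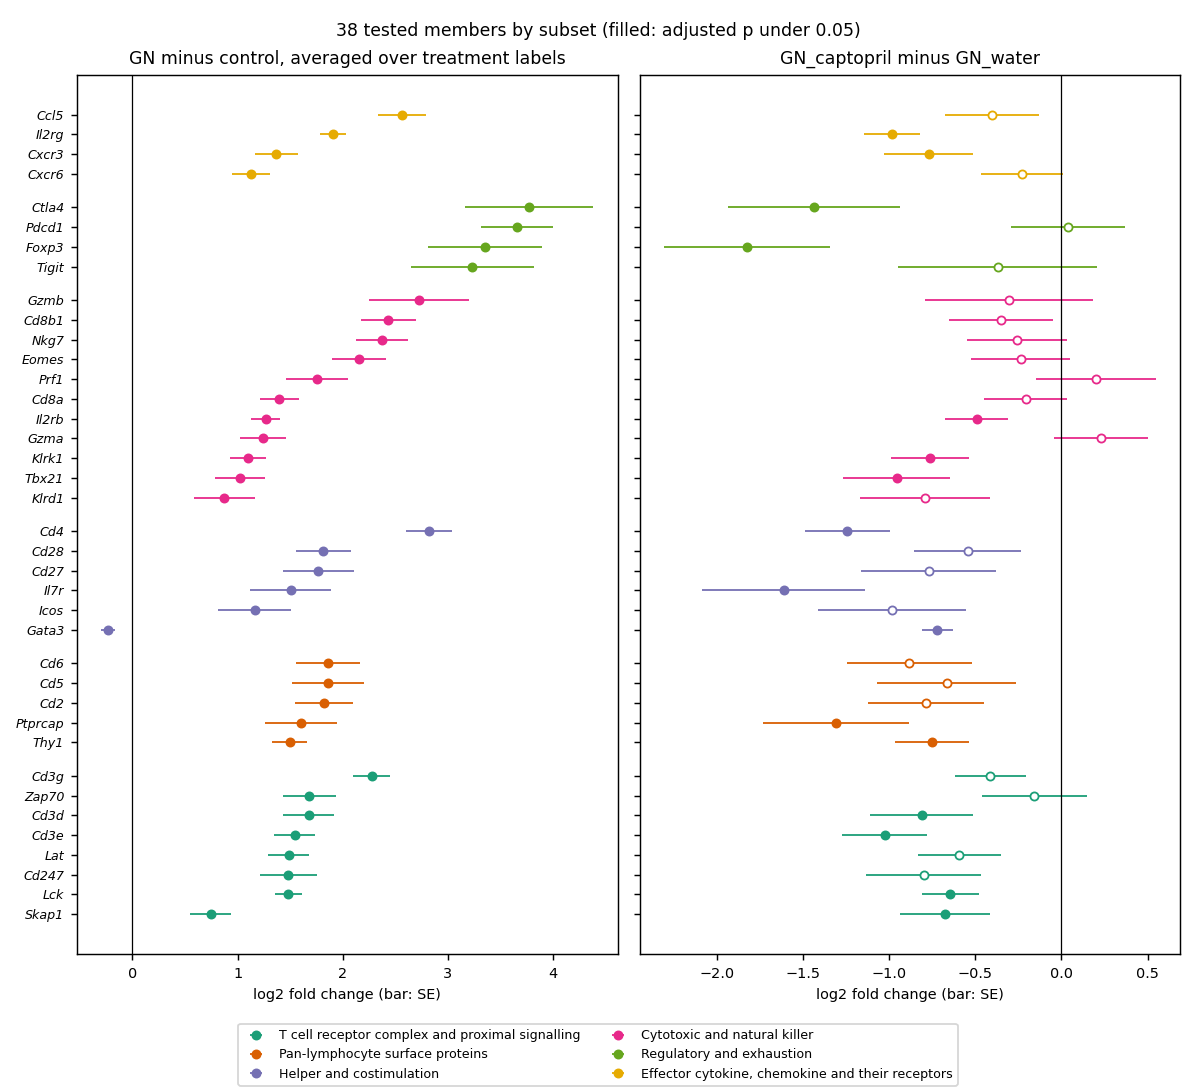
Log2 fold change (x axis; bars, SE) of the 38 tested T and NK cell genes, grouped by subset, for GN minus control averaged over both drinks (left) and for GN_captopril minus GN_water (right); filled points passed an edgeR adjusted p of 0.05. On the left 37 points lie to the right of 0 and Gata3 lies to the left, and on the right the 16 filled points all lie below 0.

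Promoter windows, from 250 bases before to 50 after the transcription start, were taken from the RefSeq table for mouse (GRCm38.p6), which held 33 windows of 28 of the 40 genes. Members that rose together are shown beside Gata3, which fell, so that the letters of their promoters can be compared. Cd3e (chr9:45009562-45009861, minus strand), Pdcd1 (chr1:94052504-94052803, minus strand), Gzmb (chr14:56262285-56262584, minus strand) and Gata3 (chr2:9878551-9878850, minus strand) are given 5′ to 3′ on the strand of the gene. Capitals mark the letters TGTGGT, the core bound by Runx factors, or AGGAAG, which holds the GGAA core of Ets factors, on either strand (so ACCACA and CTTCCT too).
Cd3e: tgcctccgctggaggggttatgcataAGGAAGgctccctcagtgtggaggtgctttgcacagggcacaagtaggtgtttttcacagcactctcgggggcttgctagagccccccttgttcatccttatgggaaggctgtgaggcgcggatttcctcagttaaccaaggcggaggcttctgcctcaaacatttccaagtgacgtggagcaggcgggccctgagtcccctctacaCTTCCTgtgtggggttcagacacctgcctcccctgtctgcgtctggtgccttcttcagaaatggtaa
Pdcd1: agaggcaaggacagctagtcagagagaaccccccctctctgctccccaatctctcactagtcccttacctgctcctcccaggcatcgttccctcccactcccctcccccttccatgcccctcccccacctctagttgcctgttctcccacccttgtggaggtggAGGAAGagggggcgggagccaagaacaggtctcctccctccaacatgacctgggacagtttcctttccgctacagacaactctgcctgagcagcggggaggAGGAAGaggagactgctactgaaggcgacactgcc
Gzmb: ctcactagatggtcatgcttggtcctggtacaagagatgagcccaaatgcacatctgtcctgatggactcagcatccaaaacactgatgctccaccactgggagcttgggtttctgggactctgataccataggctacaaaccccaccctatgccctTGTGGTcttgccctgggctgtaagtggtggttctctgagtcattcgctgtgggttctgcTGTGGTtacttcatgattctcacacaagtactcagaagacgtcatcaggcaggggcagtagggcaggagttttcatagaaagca
Gata3: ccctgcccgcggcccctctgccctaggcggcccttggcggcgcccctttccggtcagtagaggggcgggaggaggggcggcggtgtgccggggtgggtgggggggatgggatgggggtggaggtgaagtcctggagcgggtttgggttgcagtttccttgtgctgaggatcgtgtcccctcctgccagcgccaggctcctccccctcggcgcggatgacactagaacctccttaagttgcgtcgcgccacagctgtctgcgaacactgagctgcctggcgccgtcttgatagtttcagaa
AGGAAG was in the Cd3e and Pdcd1 windows on 2 occasions each, TGTGGT was in the Gzmb window on 2 occasions, and neither was in the Gata3 window. Neither was in the windows of Cd3g, Cd8a, Cd27 and Eomes, which rose, so lacking both does not set Gata3 apart. TGTGGT was in 15 of the 33 windows (45.5%) and in 16.8% of all 32851 windows of the table. AGGAAG was in 18 of 33 (54.5%) and in 35.4% of all. TATAAA was in 3 windows (9.09%, against 13.6% of all) and TGANTCA, an AP-1 site, in 2 (6.06%, against 7.81%). Several windows can belong to 1 gene: TGTGGT was found for 14 and AGGAAG for 16 of the 28 genes. These are matches of letters and say nothing of binding. The median GC content was 50.3% in the members' windows and 52.7% in all.

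The receptor complex and its signalling genes rose together. The CD3 genes lie side by side on chromosome 9: Cd3g (chr9:44969572-44980431), Cd3d (chr9:44981769-44987052) and Cd3e (chr9:44998735-45009663; RefSeq, GRCm38, which shares its coordinates with mm10), with 1338 bases between Cd3g and Cd3d. Cd3g, the gamma chain of CD3, was at 0.931, 0.910 and 0.838 CPM in Control_water, 0.538, 1.11 and 1.11 in Control_captopril, 4.26, 5.22 and 5.78 in GN_water and 3.19, 3.89 and 4.38 in GN_captopril. The GN libraries held at least 3.19 CPM and the controls at most 1.11, and the GN change (here and for the genes that follow, the log2 fold change averaged over both drinks) was 2.28 ± 0.17 (SE), edgeR adjusted p = 1.49e-06. Cd3e, the epsilon chain, was at 0.698, 0.910 and 0.580 CPM in Control_water, 0.538, 0.875 and 1.16 in Control_captopril, 2.98, 3.66 and 3.26 in GN_water and 1.33, 1.97 and 1.51 in GN_captopril. GN_water lay above GN_captopril, and both lay above all controls. Its GN change was 1.54 ± 0.20 (SE), edgeR adjusted p = 7.47e-05. Lck (chr4:129548344-129573641), the kinase that starts the receptor signal, was at 1.82, 2.06 and 2.0 CPM in Control_water, 1.39, 2.21 and 1.97 in Control_captopril, 6.09, 7.73 and 6.13 in GN_water and 4.25, 3.95 and 4.59 in GN_captopril. As for Cd3e, GN_water lay above GN_captopril and both lay above all controls, and the GN change was 1.48 ± 0.13 (SE), edgeR adjusted p = 3.30e-06. Cd3d (1.68), Cd247 (1.48; the zeta chain), Zap70 (1.68), Lat (1.49) and Skap1 (0.75; an adaptor of adhesion signalling) rose as well, on the log2 scale. Skap1 was the only gene of the subset whose GN and control libraries overlapped.

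**Figure D2:**
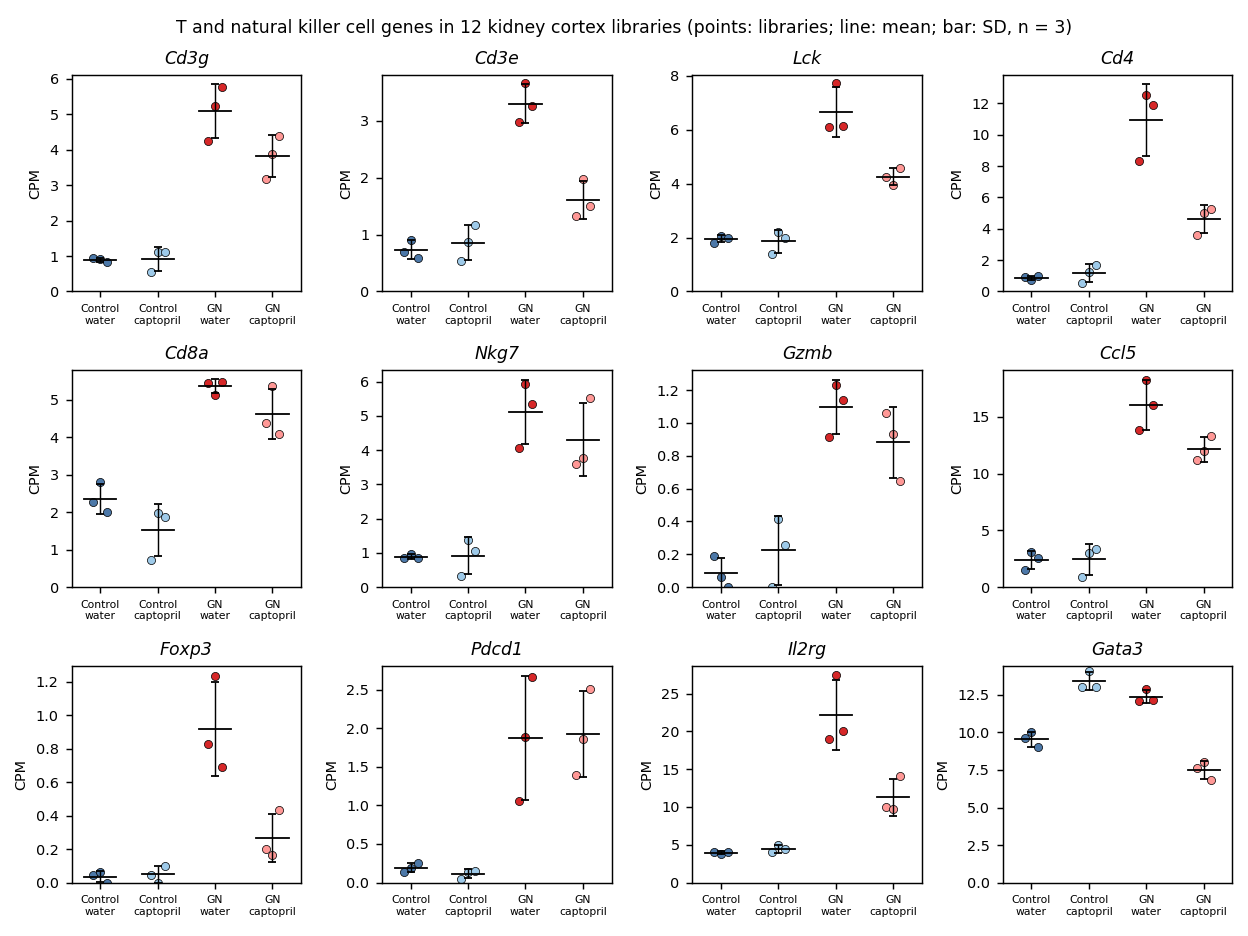
CPM (y axis, linear from 0) of 12 T and NK cell genes in each library (points) of the 4 groups, with the mean (line) and SD (bar, n = 3). For each gene but Gata3, all GN libraries lie above all control libraries; for Gata3 the lowest group is GN_captopril, at 6.82 to 8.01 CPM.

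All 5 pan-lymphocyte surface genes rose without overlap between the 6 GN and 6 control libraries. Thy1 (chr9:44043384-44048579), a surface glycoprotein of mouse T cells that fibroblasts also carry, was at 2.05, 1.82 and 3.42 CPM in Control_water, 2.78, 2.35 and 3.74 in Control_captopril, 8.75, 11.8 and 8.65 in GN_water and 5.05, 5.54 and 6.82 in GN_captopril. The groups did not overlap except for the 2 control groups, and the GN change was 1.50 ± 0.17 (SE), edgeR adjusted p = 2.44e-05. The summed level of fibroblast and pericyte markers, of which 6 of 8 rose, was 208 to 253 CPM in controls, 454 to 620.0 in GN_water and 277 to 439.7 in GN_captopril. Its part in the Thy1 result was not tested. Cd2 (chr3:101275908-101287939), an adhesion receptor of T and NK cells, was at 0.466, 0.607 and 0.838 CPM in Control_water, 0.314, 0.737 and 0.961 in Control_captopril, 2.38, 4.15 and 2.42 in GN_water and 1.53, 1.37 and 2.37 in GN_captopril. GN_water replicate 2 was the highest library, and the GN change was 1.82 ± 0.28 (SE), edgeR adjusted p = 2.81e-04. Cd5 (1.86), Cd6 (1.86) and Ptprcap (1.60), a partner of the phosphatase CD45, rose by similar amounts on the log2 scale. Of these, Cd5 passed the count filter only with the GN libraries. Ptprcap reached 7.52 CPM in GN_water replicate 2 and 1.58 to 3.51 CPM in the other GN libraries.

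Among the helper and costimulation genes, Cd4 stood out by its size. Cd4 (chr6:124864693-124888247), the coreceptor of helper T cells, which some macrophages and dendritic cells also make, was at 0.931, 0.728 and 0.967 CPM in Control_water, 0.538, 1.24 and 1.67 in Control_captopril, 8.29, 12.5 and 11.9 in GN_water and 3.59, 4.99 and 5.24 in GN_captopril. Every GN_water library lay above every GN_captopril library, and every GN_captopril library above every control, with at most 1.67 CPM in a control. The GN change was 2.82 ± 0.22 (SE), edgeR adjusted p = 1.49e-06, a 7.06-fold rise. The summed level of 12 macrophage markers, all of which rose, was 178 to 257 CPM in controls, 1248 to 1768 in GN_water and 614 to 1193 in GN_captopril, also without overlap between GN_water, GN_captopril and controls. Its part in the Cd4 result was not tested. Cd28 (chr1:60746388-60773359), the receptor for the costimulatory signal, was at 0.326, 0.485 and 0.451 CPM in Control_water, 0.359, 0.461 and 0.303 in Control_captopril, 1.47, 2.22 and 1.38 in GN_water and 0.996, 1.70 and 0.718 in GN_captopril. The GN libraries lay above all controls, and the change was 1.82 ± 0.26 (SE), edgeR adjusted p = 1.93e-04. Cd27 (1.77), Icos (1.16) and Il7r (1.50), the receptor for interleukin 7, also rose on the log2 scale. Cd28, Cd27 and Icos passed the count filter only with the GN libraries, so a difference was built into their selection. Il7r was at 1.83 to 4.32 CPM in GN_water, but GN_captopril replicates 1 and 2, at 0.399 and 0.603 CPM, lay among the controls (0.359 to 0.860 CPM).

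Gata3 went the other way. Gata3 (chr2:9857078-9887953) directs type 2 helper T cells and is also made by collecting duct cells of the kidney. It was at 9.64, 10 and 9.03 CPM in Control_water, 13.1, 14.1 and 13 in Control_captopril, 12.1, 12.9 and 12.2 in GN_water and 7.64, 8.01 and 6.82 in GN_captopril. Control_captopril was the highest group and GN_captopril the lowest, and GN and control libraries overlapped. The mean GN change was small, -0.23 ± 0.06 (SE), edgeR adjusted p = 0.0138. It was 0.37 ± 0.09 (SE) in water and -0.84 ± 0.09 (SE) in captopril, of opposite sign. The summed level of 8 collecting duct and distal nephron markers put the 4 groups in the same order: 1186 to 1291 CPM in Control_water, 1927 to 2130 in Control_captopril, 1467 to 1501 in GN_water and 926 to 1068 in GN_captopril. Of those markers, 5 fell and 1 rose in the GN average, and their part in the Gata3 result was not tested.

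The 2 chains of CD8 lie side by side on chromosome 6, 35935 bases apart. Cd8a (chr6:71373427-71379171) was at 2.28, 2.79 and 2.0 CPM in Control_water, 0.718, 1.98 and 1.87 in Control_captopril, 5.45, 5.14 and 5.49 in GN_water and 4.38, 5.38 and 4.09 in GN_captopril. All GN libraries, at 4.09 CPM or more, lay above all controls, at 2.79 or less, while GN_water and GN_captopril overlapped. The GN change was 1.40 ± 0.19 (SE), edgeR adjusted p = 1.06e-04. Cd8b1 (chr6:71322788-71337492), the beta chain, which is more restricted to T cells, was at 0.279, 0.910 and 0.516 CPM in Control_water, 0.269, 0.599 and 0.607 in Control_captopril, 2.75, 3.62 and 3.21 in GN_water and 1.66, 3.02 and 2.80 in GN_captopril. Again GN lay above controls without overlap, and the change was 2.43 ± 0.26 (SE), edgeR adjusted p = 1.91e-05. Nkg7 (chr7:43437138-43438246), a granule membrane protein of NK and cytotoxic T cells, was at 0.838, 0.971 and 0.838 CPM in Control_water, 0.314, 1.38 and 1.06 in Control_captopril, 4.08, 5.92 and 5.34 in GN_water and 3.59, 3.78 and 5.53 in GN_captopril. The lowest GN library stood at 3.59 CPM and the highest control at 1.38, with a GN change of 2.38 ± 0.25 (SE), edgeR adjusted p = 1.41e-05. Gzmb (chr14:56258836-56262334), granzyme B, was at 0.186, 0.0607 and 0 CPM in Control_water, 0, 0.414 and 0.253 in Control_captopril, 0.916, 1.23 and 1.14 in GN_water and 1.06, 0.933 and 0.646 in GN_captopril. The 6 control libraries together held 19 counts of Gzmb and the 6 GN libraries 115, and the change was 2.73 ± 0.48 (SE), edgeR adjusted p = 8.16e-04. The other granule genes rose as well: Prf1, perforin, by 1.75 and Gzma, granzyme A, by 1.24 on the log2 scale. So did Eomes (2.16) and Tbx21 (1.02), the transcription factors of cytotoxic and NK cells, Il2rb (1.27), a chain of the receptors for interleukins that maintain NK and memory T cells, and the NK receptors Klrk1 (1.10) and Klrd1 (0.87). Gzmb, Prf1, Gzma, Eomes, Tbx21 and Klrd1 passed the count filter only with the GN libraries, so a difference was built into their selection.

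Ncr1 (chr7:4337715-4345184), which encodes NKp46 and is the most NK-restricted gene of the set, stayed near the limit of detection. It was at 0.186, 0.0607 and 0.258 CPM in Control_water, 0.0897, 0 and 0.253 in Control_captopril, 0.321, 0.576 and 0.247 in GN_water and 0.465, 0.0549 and 0.359 in GN_captopril. GN and control libraries overlapped. The 39 counts in GN against 16 in controls, scaled for depth, gave a ratio of 2.52 (exact 95% counting interval 1.37 to 4.82), an interval that covers counting error only and not the spread between libraries. In GN_captopril against controls the ratio was 2.02 (exact 95% counting interval 0.893 to 4.47), so a difference was not detectable there at this depth.

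The regulatory and exhaustion genes were almost silent in controls and, as said above, passed the count filter only with the GN libraries. Pdcd1 (chr1:94038305-94052553), which encodes PD-1, was at 0.140, 0.182 and 0.258 CPM in Control_water, 0.0449, 0.138 and 0.152 in Control_captopril, 1.05, 1.89 and 2.67 in GN_water and 1.39, 1.87 and 2.51 in GN_captopril. The GN groups lay above all controls and overlapped each other, and the change was 3.66 ± 0.34 (SE), edgeR adjusted p = 6.22e-06, a 12.6-fold rise. Foxp3 (chrX:7579676-7595243) was at 0.0466, 0.0607 and 0 CPM in Control_water, 0.0449, 0 and 0.101 in Control_captopril, 0.825, 1.23 and 0.692 in GN_water and 0.199, 0.165 and 0.431 in GN_captopril. GN_water lay above GN_captopril and GN_captopril above all controls. The GN change was 3.35 ± 0.54 (SE), edgeR adjusted p = 4.83e-04, and 74 counts in GN against 5 in controls gave a depth-scaled ratio of 15.3 (exact 95% counting interval 6.26 to 48.4). Ctla4 (chr1:60909025-60915832), which competes with CD28 for its ligands and lies 135666 bases from it on chromosome 1, was at 0, 0 and 0.0645 CPM in Control_water, 0, 0 and 0.0506 in Control_captopril, 0.504, 0.576 and 0.494 in GN_water and 0.199, 0.219 and 0.144 in GN_captopril. As for Foxp3, GN_water lay above GN_captopril and GN_captopril above all controls, and the change was 3.77 ± 0.61 (SE), edgeR adjusted p = 4.60e-04, from 44 counts in GN against 2 in controls, a ratio of 22.7 (exact 95% counting interval 5.92 to 193). Tigit, a receptor shared by T and NK cells, rose by 3.23 ± 0.59 (SE) on the log2 scale, with 0.550 to 2.59 CPM in GN and at most 0.368 CPM in controls.

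Of the effector genes, Il2rg had the smallest adjusted p of the 38 genes tested. Il2rg (chrX:101264385-101268255) encodes the common gamma chain of several interleukin receptors, and other leukocytes make it too. It was at 4.10, 3.76 and 4.0 CPM in Control_water, 3.99, 4.97 and 4.40 in Control_captopril, 19, 27.5 and 20.1 in GN_water and 9.96, 9.71 and 14.1 in GN_captopril. The 2 control groups overlapped, GN_captopril lay above them and GN_water above GN_captopril, and the GN change was 1.91 ± 0.13 (SE), edgeR adjusted p = 6.82e-07. Ccl5 (chr11:83525778-83530518), a chemokine of effector T and NK cells, was at 1.49, 3.09 and 2.51 CPM in Control_water, 0.897, 2.99 and 3.39 in Control_captopril, 13.8, 18.3 and 16.1 in GN_water and 11.2, 12 and 13.3 in GN_captopril. The lowest GN library stood at 11.2 CPM and the highest control at 3.39, and the change was 2.56 ± 0.23 (SE), edgeR adjusted p = 4.23e-06. Cxcr3 (chrX:101731535-101734147), the receptor for interferon-induced chemokines on effector T cells, was at 1.16, 0.667 and 0.967 CPM in Control_water, 0.897, 1.98 and 1.87 in Control_captopril, 3.89, 3.74 and 4.79 in GN_water and 1.99, 2.41 and 2.87 in GN_captopril. It rose by 1.37 ± 0.20 (SE), edgeR adjusted p = 2.40e-04, and the closest libraries were GN_captopril replicate 1 and Control_captopril replicate 2. Cxcr6, a receptor of tissue T and NK cells, rose by 1.13 ± 0.18 (SE). Ifng (chr10:118441046-118445894), interferon gamma, was at 0, 0 and 0.193 CPM in Control_water, 0, 0.0461 and 0 in Control_captopril, 0.183, 0.0822 and 0.346 in GN_water and 0.133, 0.110 and 0.0718 in GN_captopril. With 18 counts in GN and 4 in controls its ratio was 4.64 (exact 95% counting interval 1.53 to 18.9), and GN and control libraries overlapped.

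Ratios of 2 genes within each library show whether one marker moved more than another, whatever the scaling. Each was taken as log2 of counts plus 0.5, and GN was compared with controls by a two-sided exact permutation test within each drink (400 arrangements, smallest p 0.005), adjusted over 8 ratios. The drinks are those of the labels, and within each drink GN and control libraries also differ in Xist and Y-linked transcripts. Permutation between groups that share these transcripts was not tried. The Cd8a to Cd4 ratio was 1.27, 1.90 and 1.02 in Control_water, 0.40, 0.66 and 0.16 in Control_captopril, -0.60, -1.28 and -1.11 in GN_water and 0.29, 0.11 and -0.35 in GN_captopril. It was -0.49 ± 0.63 (SD, n = 6) in GN and 0.90 ± 0.63 in controls, a difference of -1.40 (exact permutation p = 0.01, adjusted 0.0267), and 5 of 6 GN libraries lay below all controls. Cd4 thus rose more than Cd8a in GN. Cd4 also rose more than Cd3e, by 1.30 with 6 of 6 GN libraries above all controls (exact permutation p = 0.005, adjusted 0.0267). The Cd8a to Cd3e ratio differed by -0.10 (exact permutation p = 0.8, adjusted 0.8). These ratios hold for the chains named. In the GN changes given above, Cd8b1 rose more than Cd8a and Cd3g more than Cd3e, though less than Cd4. No ratio with Cd8b1 or Cd3g was tested.

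Relative to Cd3e, Pdcd1 was higher in GN by 1.94 (exact permutation p = 0.01, adjusted 0.0267; 5 of 6 GN libraries above all controls). Foxp3 was higher by 1.56 (exact permutation p = 0.015, adjusted 0.03; 5 of 6 above). Gzmb was higher by 1.65 (exact permutation p = 0.02, adjusted 0.032), with 1 of 6 GN libraries above all controls. The Gzmb call was lost without GN_water replicate 2 or 3 or without any 1 of the GN_captopril libraries, with adjusted p up to 0.112. The Foxp3 call reached an adjusted p of 0.05 without GN_water replicate 2 or 3 or GN_captopril replicate 3. The pseudocount weighs on both genes, since controls held 5 and 19 counts of them. It weighs on Pdcd1 too, with 10 counts in Control_water and 7 in Control_captopril. Pdcd1, Foxp3 and Gzmb passed the count filter only with the GN libraries, so a difference was built into their selection. Their ratios are thus no support for a rise larger than that of Cd3e. For Ncr1 (-0.24, exact permutation p = 0.745) and Ifng (0.39, exact permutation p = 0.645) no difference relative to Cd3e was detectable.

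**Figure D3:**
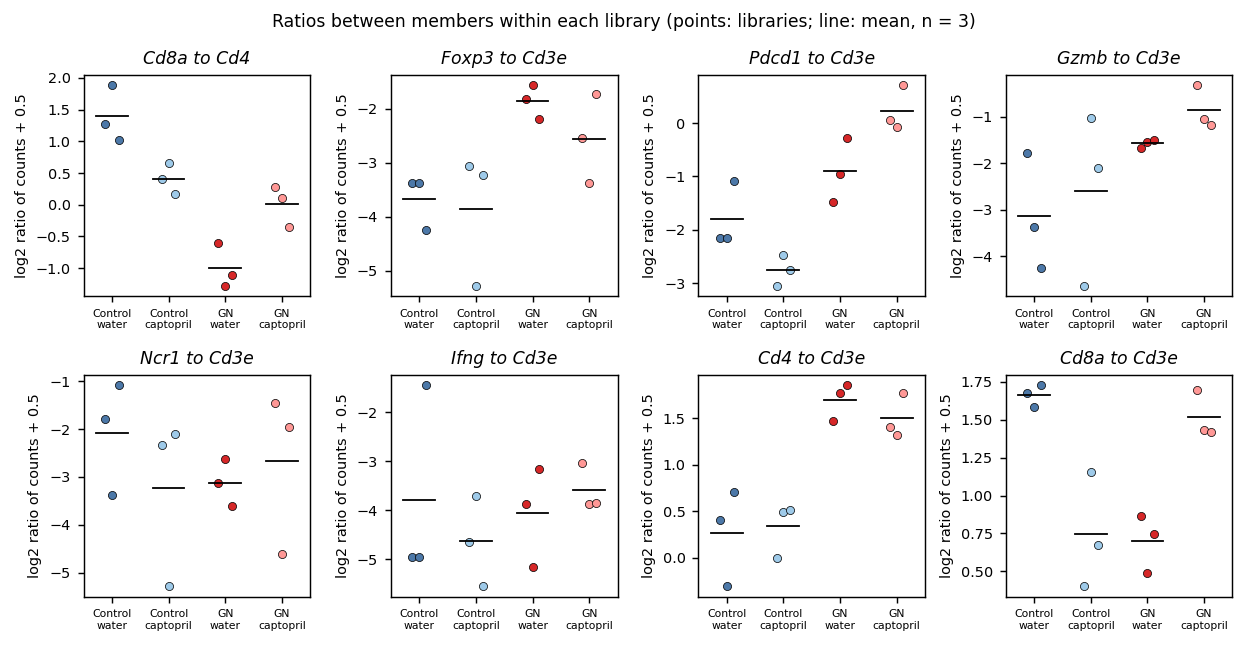
Log2 ratio of counts plus 0.5 (y axis) between pairs of T and NK cell genes in each library (points) of the 4 groups, with the group mean (line, n = 3). The Cd4 to Cd3e ratio of every GN library lies above every control, and the mean Cd8a to Cd4 ratio is lowest in GN_water, at -1.0.

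The GN change was also read between groups that carry the same sex-linked transcripts. In GN_water minus Control_captopril, both with Xist, 36 of the 40 genes were higher and 0 lower, against 16.9% and 13.2% of all genes. In GN_captopril minus Control_water, both with Y-linked transcripts, 25 were higher and 1 lower, against 7.05% and 5.02% of all genes. The second count of 26 calls fell to 17 without Control_water replicate 1, when 4.79% of all genes were higher and 4.08% lower, and to 17 without the 2 libraries with most adrenal counts (4.07% and 2.28%). Cd4 was higher by 3.26 ± 0.29 (SE) in the first and 2.38 ± 0.33 (SE) in the second, Cd3g by 2.47 ± 0.24 (SE) and 2.08 ± 0.25 (SE), and Pdcd1 by 4.01 ± 0.49 (SE) and 3.31 ± 0.47 (SE) on the log2 scale. Foxp3 (4.12 and 2.58) and Ctla4 (4.58 and 2.96) passed in the first comparison only, at adjusted p = 0.0733 and 0.0598 in the second (edgeR). The differences between the 2 changes were not tested. Between groups that share the drink, 38 of the 40 were higher and 0 lower in GN_water minus Control_water (27.4% and 23.9% of all genes), and 28 were higher and 1 lower in GN_captopril minus Control_captopril (20.5% and 19.3%). The last count of 29 calls fell to 19 without Control_captopril replicate 1, when 16.5% of all genes were higher and 16.2% lower. These comparisons share libraries with each other and with the GN average. Their counts include the 14 genes that passed the count filter only with the GN libraries, so a difference was built into part of each count.

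**Figure D4:**
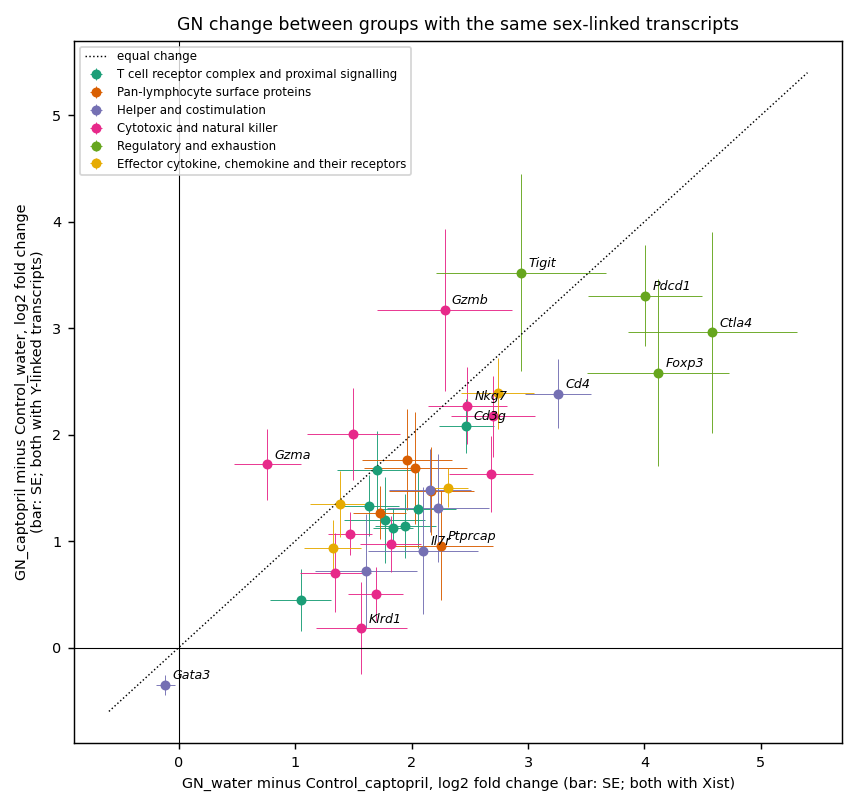
Log2 fold change of the 38 tested genes in GN_water minus Control_captopril (x axis, both groups with Xist) against GN_captopril minus Control_water (y axis, both with Y-linked transcripts); bars are SE, colours are subsets and the dotted line marks equal change. All points but Gata3 lie above 0 on both axes, and Cd4 stands at 3.26 and 2.38.

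GN libraries labelled captopril held less RNA of many of these genes than GN libraries labelled water. In GN_captopril minus GN_water 16 of the 40 were lower and 0 higher, against 25.5% of all genes lower and 19.6% higher. The mean was higher in GN_water for 37 of the 40, and in 20 all 3 GN_water libraries lay above all 3 GN_captopril libraries, which held for 31.7% of all genes. The count of 16 rested on single libraries: it was 8 without GN_water replicate 2, 10 without GN_water replicate 3, 7 without GN_captopril replicate 1 and 10 without GN_captopril replicate 2, when 17.3%, 18.1%, 20.9% and 20.1% of all genes tested were lower. GN_water replicate 2 held the highest value of 25 of the 40 genes. It also had the highest sum of B and plasma cell markers, 987 CPM against 436 and 446 CPM in the other GN_water libraries, and the highest macrophage sum. The 2 groups differ in Xist, the Y-linked genes and Ren1, so the drink and the kind of mouse cannot be told apart.

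The genes that were lower came from every subset: 4 of 8 in the receptor complex, 2 of 5 pan-lymphocyte, 3 of 6 helper, 3 of 12 cytotoxic, 2 of 4 regulatory and 2 of 5 effector genes, with medians of -0.66, -0.79, -0.88, -0.33, -0.91 and -0.77 on the log2 scale, beside -0.07 over all genes. Among all genes tested, 25.5% were lower. The 3 smallest adjusted p were those of Gata3 (-0.72 ± 0.09 (SE), edgeR adjusted p = 3.42e-05), Il2rg (-0.99 ± 0.16 (SE), edgeR adjusted p = 2.93e-04) and Cd4 (-1.24 ± 0.25 (SE), edgeR adjusted p = 0.00128). Cd3e was lower too, with a change of -1.03 ± 0.25 (SE), edgeR adjusted p = 0.00433, and so was Thy1 (-0.75 ± 0.22 (SE)). Foxp3, with 62 counts in GN_water and 12 in GN_captopril, was lower with a change of -1.83 ± 0.48 (SE), edgeR adjusted p = 0.00771, at a depth-scaled ratio of 0.272 (exact 95% counting interval 0.133 to 0.510). Ctla4 was lower too (-1.44 ± 0.50 (SE)), at a ratio of 0.361 (exact 95% counting interval 0.153 to 0.767). The Ctla4 call was lost with DESeq2, with no filter and when any single GN library was left out. Foxp3 and Ctla4, the 2 regulatory genes counted here, passed the count filter only through the GN_water libraries. A difference between the GN groups was thus built into their selection. Of the cytotoxic genes, Il2rb (-0.49), Klrk1 (-0.76) and Tbx21 (-0.96) were lower. The Il2rb call was lost with DESeq2 and without any single GN library but GN_captopril replicate 3. The Klrk1 and Tbx21 calls were each lost without some of the GN libraries. Pdcd1 (0.04 ± 0.33 (SE)), Cd8a (-0.21 ± 0.24 (SE)), Nkg7 (-0.26 ± 0.29 (SE)), Gzmb (-0.31 ± 0.49 (SE)), Prf1 (0.20 ± 0.35 (SE)) and Gzma (0.23 ± 0.27 (SE)) did not pass the test.

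Ratios were also compared between the GN groups, in a design of 3 against 3 that cannot pass 0.05, since its smallest exact permutation p is 0.1. Without overlap, GN_captopril exceeded GN_water in Cd8a to Cd4 (1.01), Cd8a to Cd3e (0.82), Pdcd1 to Cd3e (1.14) and Gzmb to Cd3e (0.73) on the log2 scale, each at that smallest p. Foxp3 to Cd3e (-0.69) and Cd4 to Cd3e (-0.20) overlapped, each at exact permutation p = 0.3. In controls, the mean Cd8a to Cd4 ratio was 1.40 in Control_water and 0.41 in Control_captopril. For Cd8a to Cd3e these means were 1.66 and 0.74, and for Pdcd1 to Cd3e -1.79 and -2.76. In these ratios the libraries with Y-linked transcripts thus had the higher mean in both disease states. Gzmb to Cd3e went the other way in controls, at -3.13 in Control_water and -2.59 in Control_captopril.

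Averaged over disease with the drinks as labelled, captopril minus water called 0 of the 40 genes by edgeR, while 5 had an unadjusted p under 0.05, and 3.17% of all genes were higher and 3.34% lower. DESeq2 called 1 (Il2rg) lower and limma-voom 0, while limma on log2 RPKM called 1 with a pseudocount of 0.01 and 6 with 0.1, all lower. In controls, Control_captopril minus Control_water called 1 gene, Gata3, higher (0.49 ± 0.09 (SE), edgeR adjusted p = 8.58e-04), against 15.4% of all genes higher and 17% lower. The difference between the GN change in captopril and that in water, the interaction, was negative for 8 of the 40 and positive for 0, against 27.1% and 23.6% of all genes, so the share was no higher than among all genes. The 3 smallest adjusted p were those of Gata3 (-1.21 ± 0.13 (SE), edgeR adjusted p = 3.96e-06), Il2rg (-1.16 ± 0.25 (SE), edgeR adjusted p = 0.00195) and Cxcr3 (-1.50 ± 0.41 (SE), edgeR adjusted p = 0.00762). This contrast is the sum of the libraries with Y-linked transcripts minus the sum of those with Xist, so drink and kind of mouse cannot be told apart there. If the drinks of the 2 control groups were exchanged, which was not tested, this contrast would measure the drink over both disease states, and the captopril average would not.

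Other genes of the pathway moved with the members. For the list counts from here on, 16.3% of all genes tested were higher and 14.6% lower in the GN average. Of 24 further T cell signalling genes, 18 rose in the GN average and 0 fell, with the smallest adjusted p for Fyb (2.10), Lcp2 (2.20) and Vav1 (1.66), adaptors and an exchange factor below the receptor. Of 10 further exhaustion and regulatory genes, 9 rose, among them Batf (2.65), Tnfrsf18 (2.11; GITR) and Entpd1 (0.64; CD39). Of 14 further NK and cytotoxic genes, 7 rose, with Gzmk (3.45; granzyme K), Ctsw (1.49) and Cd244 (1.79) first, and 6 were not tested for low counts. Antigen receptor constant regions are not analysed here. Some of these genes, such as Fyb, Lcp2, Vav1 and Entpd1, are also made by other leukocytes or by endothelium.

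Some of the signals that act on T and NK cells were higher in the GN average. Cxcl16, the ligand of Cxcr6, rose by 0.67 ± 0.06 (SE), edgeR adjusted p = 6.90e-06, and Cxcl9, a ligand of Cxcr3, by 2.12 ± 0.25 (SE), edgeR adjusted p = 4.32e-05. Neither passed the test in GN_captopril minus GN_water (-0.22 ± 0.09 (SE) and -0.07 ± 0.31 (SE)). Of 9 ligands of costimulatory and checkpoint receptors 5 rose, first Cd86 (1.48), Lgals9 (0.62) and Icosl (0.43). In GN_captopril minus GN_water 4 of the 9 were lower, against 25.5% of all genes. Of 14 cytokines 4 rose, among them Tgfb1 (0.98), Tnf (2.85) and Il7 (0.82), while 8 were not tested for low counts. Of 5 genes of naive and recirculating T cells 3 rose: S1pr1 (0.44) and Klf2 (0.44), which endothelium makes too, and Ccr7 (0.95). Of 8 genes of type 17 and gamma delta T cells, 1 rose, Il1r1 (0.36).

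Markers of other cells rose in the same libraries, and their part in the results above was not tested. Of 12 B and plasma cell markers 9 rose; their sum was 190.3 to 226 CPM in controls, 436 to 987 in GN_water and 272 to 424 in GN_captopril. Jchain, the joining chain of secreted IgM and IgA, went from 1.46 and 6.16 CPM in the control groups to 312 in GN_water and 59.5 in GN_captopril. Of 7 lymph node stroma and follicle genes 2 rose, Cxcl13 (5.99 ± 0.70 (SE), edgeR adjusted p = 3.40e-05), the chemokine of B cell follicles, and Ccl19 (1.08 ± 0.14 (SE), edgeR adjusted p = 6.44e-05), the ligand of Ccr7. The sum of this list was 8.57 to 16.7 CPM in controls, 38.2 to 66.1 in GN_water and 12.2 to 29.7 in GN_captopril. That sum was highest in GN_water replicate 2. Glycam1, made by lymph node vessels, was at 0 in 3 of the 4 groups and at a mean of 0.0137 CPM in GN_water. Of 7 erythrocyte and platelet markers 6 rose, with sums of 747 to 1789 CPM in controls and 924.4 to 1880 CPM in GN, which overlapped. Of 8 dendritic cell markers 4 rose, and of 8 neutrophil markers 4 rose.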

How the data were processed

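Stranded mRNA sequencing covered 12 kidney cortex libraries, grouped by the labels alone. The authors deposited estimated counts per gene symbol (86.4% whole, rounded here before testing) together with RPKM values. The submitters' processing notes name Bowtie2, Partek and, as genome, mm10; which step each did, and in which version, is not given in the sources used here. Depth was 14.2 to 22.8 M counts a library (M, mega). edgeR 4.0.16 (R 4.3.3) kept 14618 genes with filterByExpr (minimum count 10, minimum total 15), scaled by TMM and fitted quasi-likelihood models with 1 mean per group over all 12 libraries; the Benjamini-Hochberg adjustment ran over all 14618 genes, with a threshold of 0.05. The SE came from the estimate and its F statistic, and CPM used TMM-adjusted totals. Ratios were tested with Python 3.11.15, counting intervals were computed in R and figures drawn with matplotlib 3.10.9. The genes and lists were chosen with earlier results of these data known. Genes with values in every library were the 2 of each subset with the smallest adjusted p in the GN average, the 3 smallest in GN_captopril minus GN_water and in the interaction, and Cd3e, Cd4, Cd8a, Foxp3, Pdcd1, Gzmb, Ncr1, Ifng, Ccl5, Gata3 and Thy1; of each other list up to 3 called genes are named, except that 1 gene that met the rule, and the count of its list, are not reported here. Glycam1 and the levels of Il7r, Ptprcap and Tigit were singled out after their values were seen. Alternatives were other scalings, no filter, DESeq2 1.42.0, limma-voom (limma 3.58.1), log2 of the deposited RPKM values plus 0.01 or 0.1, a replicate block, leaving out each library, the compared groups alone, and leaving out the 2 libraries with most adrenal counts. The fit was tested on simulated data.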

Additional observations from a re-analysis of the deposited data

Results flagged for a closer look

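The change with GN differed between the groups labelled captopril and those labelled water for 8 of the 40 genes, by the interaction term of the edgeR fit (adjusted p over all genes tested). As the GN change in captopril minus that in water, on the log2 scale, the difference was -1.21 for Gata3 (adjusted p = 3.96e-06), -1.16 for Il2rg (0.00195), -1.50 for Cxcr3 (0.00762), -1.61 for Cd4 (0.00907), -1.25 for Cd3e (0.0189), -1.05 for Thy1 (0.0189), -2.04 for Il7r (0.04) and -1.28 for Tbx21 (0.0418). All but Gata3 rose in both drinks or did not pass in captopril: Il7r changed by 2.52 in water and 0.48 in captopril, and Tbx21 by 1.66 and 0.39. Gata3 changed by 0.37 in water and -0.84 in captopril. Among all genes, 27.1% had a negative and 23.6% a positive interaction. Of these calls 5 were left without Control_captopril replicate 3 and 5 without GN_water replicate 2, and 15 were made without Control_captopril replicate 1. The Il7r and Tbx21 calls were each lost in most fits that left out a single library. The Tbx21 call was also lost with DESeq2, with no filter and with the replicate block.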

How the results depend on the processing

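Each count of calls and each ratio was recomputed under every alternative; 273 of these values kept their direction and call, 21 counts moved by more than 1.5 times, 8 ratio calls were lost and 5 ratios changed sign. Over single-gene GN changes, 749 kept their call, 11 lost it and 0 reversed. On log2 RPKM plus 0.01, the calls were 2 for captopril in controls, 1 for the captopril average and 17 for the interaction. With 0.1, they were 6 for the captopril average and 19 for the interaction. DESeq2 gave 1 for the captopril average. Without the 2 libraries with most adrenal counts, GN_captopril minus Control_water had 17 and the captopril average 1. The Ifng to Cd3e ratio became -0.11 with a pseudocount of 1. Leaving out each library, calls ranged from 36 to 38 in the GN average, 37 to 38 in GN in water, 19 to 29 in GN in captopril, 34 to 36 in GN_water minus Control_captopril, 17 to 27 in GN_captopril minus Control_water, 7 to 18 in captopril in GN, 1 to 2 in captopril in controls, 0 to 1 in the captopril average and 5 to 15 in the interaction. The log2 differences in ratio ranged from 1.18 to 1.38 for Cd4 to Cd3e, -0.256 to 0.0288 for Cd8a to Cd3e, -1.55 to -1.20 for Cd8a to Cd4, 1.25 to 1.79 for Foxp3 to Cd3e, 1.29 to 2.01 for Gzmb to Cd3e, 0.119 to 0.942 for Ifng to Cd3e, -0.765 to 0.103 for Ncr1 to Cd3e and 1.73 to 2.18 for Pdcd1 to Cd3e. Whether the title numbers pair libraries was not settled. Of 18 same-numbered pairs, 4 deviated together with a correlation over 0.1 (range -0.24 to 0.24), and pairs with different numbers were not compared. With the replicate block, the calls were 38 in the GN average, 17 in captopril in GN, 9 in the interaction and 0 in the captopril average. Depth limited Ncr1, Ifng, Foxp3 and Ctla4 most, with 16, 4, 5 and 2 counts over the 6 control libraries.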
